A study of Mus musculus with 6 samples.

Results

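The inhibitory immune checkpoint genes of the kidney were taken as 8 genes, namely the receptors Pdcd1 (PD-1), Ctla4 (CTLA-4), Lag3 (LAG-3), Tigit (TIGIT), Havcr2 (TIM-3) and Btla (BTLA) and the PD-1 ligands Cd274 (PD-L1) and Pdcd1lg2 (PD-L2). Every probe that the array annotation assigns to one of these symbols was used, which gave 10 of the 56605 probes on the arrays and 8 of the 36870 named genes or transcripts. RNA came from whole kidneys of female mice at 6 months of age, 3 of the strain MRL/MpJ (MRL) and 3 of MRL/MpJ-Fas lpr/lpr (LPR), with 1 array per mouse. Both groups share the MRL/MpJ background, and the LPR mice also carry the lpr mutation of the death receptor gene Fas in all cells, which leads to accumulation of lymphocytes and a lupus-like disease with nephritis. The study compared the strains to look for genes linked to tertiary lymphoid tissue in the kidney.

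Checkpoint receptors are switched on in T cells, and some of them also in B cells, natural killer cells or myeloid cells, after stimulation, and they lower the response of the cell that carries them. PD-1 binds PD-L1 and PD-L2 on antigen-presenting cells, while PD-L1 is also made by many other cells under interferon gamma. CTLA-4 competes with the activating receptor CD28 for CD80 and CD86, LAG-3 binds MHC class II, TIGIT binds CD155 and nectins, TIM-3 binds galectin-9 and other partners, and BTLA binds HVEM. Several of these molecules are known to restrain autoreactive lymphocytes and to mark T cells under lasting stimulation.

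Signals are given on the log2 scale relative to the 75th percentile of all non-control spots of the same array, so that 0 is the level of that percentile and a difference of 1 between groups is a doubling. The 75th percentile lay at an intensity of 706 to 942, from 69.6% to 73.5% of the spots were well above background by the scanner software, 0 spots were saturated, and 73 to 90 spots per array were left out as outliers. The lowest level at which a probe counted as well above background was between -6.41 and -5.88 on the 6 arrays. Fas itself was measured by 2 probes. Its brighter probe changed by -0.47 ± 0.24 (SE) on the log2 scale (limma, adjusted p = 0.234), and its dimmer probe was above background in LPR mice only and at least 1.47-fold higher there (adjusted p = 0.0338), and whether either probe lies inside the part of the gene affected by lpr was not examined. Proximal tubule markers, which define much of the kidney cortex, were bright in every kidney, at a mean level of 6.51 to 6.67 in MRL mice and 6.13 to 6.34 in LPR mice.

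Of the 8 checkpoint genes, 7 were higher in LPR mice and 1, Ctla4, did not pass the test, while 0 were lower. Over all genes, 7.12% of the brightest probes were called higher and 5.47% lower, and among all tested probes 6.53% were higher and 6.17% lower. Counted by probe, 9 of 10 passed, and on all 10 probes every LPR array lay above every MRL array, which holds for 11% of all tested probes. The changes of the 6 genes with an MRL array above background ran from 1.15 to 3.94 on the log2 scale. The median over all 8 was 3.63 as fitted and 3.03 with the other two, Pdcd1lg2 and Tigit, at their lower limits, beside a median of -0.12 over the brightest probes of all genes. In 4 of the probes no MRL array was above background, and for these the fold is given only as a lower limit. These 4 probes entered the test through the LPR arrays alone, so their separation was largely set by the background filter. They are thus no independent support for the counts of probes and genes that rose. In these bulk kidneys, more cells of a type and more RNA per cell cannot be told apart.

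**Figure D1:**
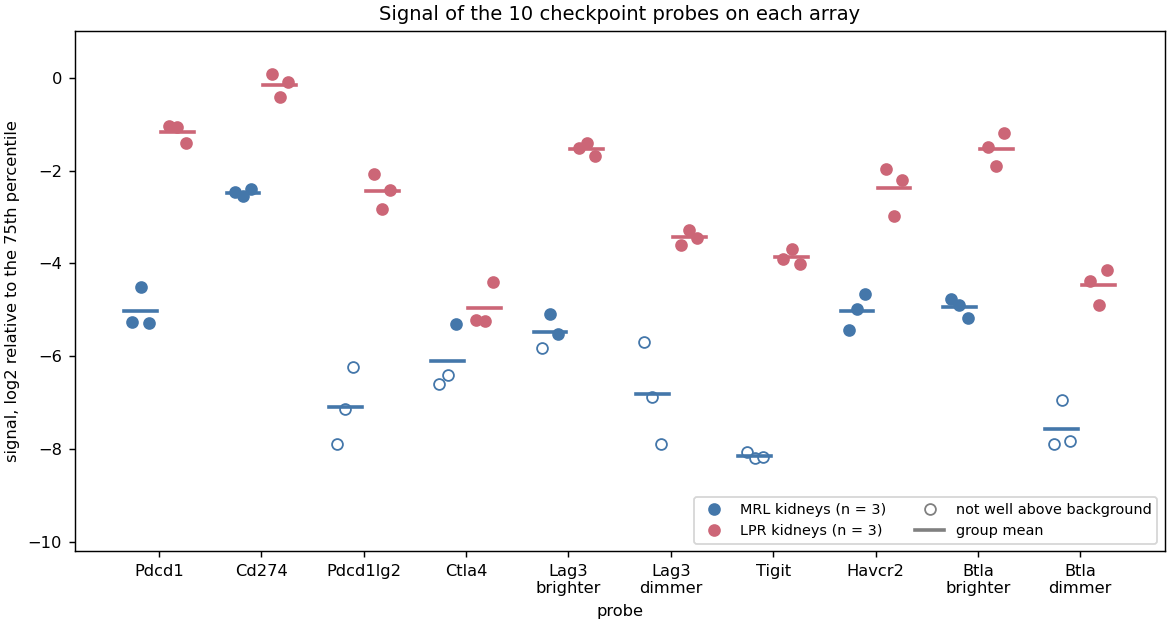
Signal of each checkpoint probe on each array, on the log2 scale relative to the 75th percentile of that array (vertical axis), with 1 point per mouse, 3 MRL and 3 LPR, and a bar at each group mean. Open points were not well above background. The groups are apart on all 10 probes, most narrowly for Ctla4, with a gap of 0.06 between the nearest mice, and most widely for Tigit, with a gap of 4.06, although its MRL points are all at background.

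PD-1 and both of its ligands rose. Pdcd1 was measured by 1 probe at chr1:95935064-95935123 on the minus strand (mm9). Its signal was -5.27, -4.50 and -5.29 in the MRL mice and -1.04, -1.05 and -1.41 in the LPR mice. All 6 values were above background, and the nearest mice of the 2 groups were 3.09 apart. The change was 3.85 ± 0.24 (SE, n = 3 per group), a 14.4-fold rise (limma, adjusted p = 1.10e-04).

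Cd274, at chr19:29462363-29462422 on the plus strand, was at -2.47, -2.56 and -2.39 in MRL mice. In LPR mice it was 0.08, -0.42 and -0.10. PD-L1 was thus above background in every kidney, and the groups lay 1.97 apart. It rose by 2.33 ± 0.15 (SE, n = 3 per group), or 5.01-fold (limma, adjusted p = 1.31e-04).

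Pdcd1lg2 lies next to Cd274, and its probe, at chr19:29545473-29545532 on the same strand, starts 83110 bases further on. The signal was -7.90, -7.14 and -6.24 in MRL mice, none of them above background, and -2.08, -2.83 and -2.41 in LPR mice. PD-L2 was therefore measurable in LPR kidneys only, where it was at least 11.4-fold higher (limma, adjusted p = 5.80e-04).

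The promoters of these 3 genes are shown because they are the only ones, among the 7 checkpoint genes with a promoter entry, that hold the core letters bound by interferon regulatory factors. The sequences are the 250 bases before the annotated start of the gene from RefSeq on GRCm38.p6, read 5′ to 3′ along the gene, at chr1:94052554-94052803 on the minus strand for Pdcd1, at chr19:29367188-29367437 on the plus strand for Cd274 and at chr19:29410669-29410918 on the plus strand for Pdcd1lg2. Capitals mark the core AANNGAAA, which reads TTTCNNTT on the other strand.
Pdcd1 promoter: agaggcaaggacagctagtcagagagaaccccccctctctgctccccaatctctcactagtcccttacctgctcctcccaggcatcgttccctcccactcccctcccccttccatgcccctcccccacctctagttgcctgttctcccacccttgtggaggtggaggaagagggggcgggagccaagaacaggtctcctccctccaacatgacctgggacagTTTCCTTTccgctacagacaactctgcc
Cd274 promoter: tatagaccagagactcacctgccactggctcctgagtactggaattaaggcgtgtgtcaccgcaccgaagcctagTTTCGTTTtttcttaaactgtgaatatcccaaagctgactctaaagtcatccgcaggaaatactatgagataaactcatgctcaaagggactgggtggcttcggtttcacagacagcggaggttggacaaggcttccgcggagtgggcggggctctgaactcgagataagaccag
Pdcd1lg2 promoter: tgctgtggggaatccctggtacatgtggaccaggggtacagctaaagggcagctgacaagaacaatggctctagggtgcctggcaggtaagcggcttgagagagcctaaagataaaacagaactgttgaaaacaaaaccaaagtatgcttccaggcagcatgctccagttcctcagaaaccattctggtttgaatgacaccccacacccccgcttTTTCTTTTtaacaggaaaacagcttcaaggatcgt

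The core begins 28 bases before the start in Pdcd1, 175 in Cd274 and 35 in Pdcd1lg2. It is common, being present on either strand in 21.3% of the 32851 promoters of the same length. The longer interferon-stimulated response element, which contains the core, was in 2.98% of all promoters and in 0 of the 7, the gamma-activated site TTCNNNGAA was in 7.02% and in 0 of the 7, and the kappaB motif was in 0.356% and in 0 of the 7. The NFAT core TTTTCC, in 20.4% of all promoters, was found in those of Ctla4, Pdcd1lg2 and Tigit, and the AP-1 letters TGANTCA, in 6.75%, in that of Havcr2. These matches describe letters in a short window and no binding was measured.

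The other inhibitory receptors came next. Lag3 was measured by 2 probes on the minus strand of chromosome 6, both annotated to the same transcript, which start 4763 bases apart. The brighter one, at chr6:124854570-124854866, covers a span longer than its own 60 bases. Its signal was -5.83, -5.09 and -5.53 in MRL mice and -1.52, -1.40 and -1.69 in LPR mice. The LPR values were close together, and 2 of the 3 MRL values were above background. Lag3 rose by 3.94 ± 0.20 (SE, n = 3 per group) on this probe, or 15.4-fold (limma, adjusted p = 4.87e-05). On the dimmer probe, at chr6:124859333-124859392, the signal was -5.69, -6.89 and -7.89 in MRL mice, all at background, and -3.60, -3.28 and -3.45 in LPR mice. The rise on this probe was at least 5.45-fold (limma, adjusted p = 0.00640) and did not pass with the slide position as a block (adjusted p = 0.0871). The fitted change was then 3.22, which rests on LPR 1, the only LPR array in the first slide position.

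Btla, the receptor for HVEM found on B and T cells, also had 2 probes, on the plus strand of chromosome 16, which start 787 bases apart. The brighter one, at chr16:45252905-45252964, gave -4.77, -4.89 and -5.17 in MRL mice and -1.50, -1.90 and -1.19 in LPR mice. All 6 values were above background and the groups were 2.87 apart. The rise was 3.42 ± 0.20 (SE, n = 3 per group), or 10.7-fold (limma, adjusted p = 9.81e-05). The dimmer one, at chr16:45252118-45252177, gave -7.89, -6.94 and -7.83 in MRL mice, all at background, and -4.37, -4.89 and -4.15 in LPR mice, at least 2.80-fold higher (adjusted p = 9.14e-04). Both probes of each gene thus moved the same way.

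The last 30 bases of these 4 probes, from the array annotation on mm9, are shown because the 2 probes of each gene read different stretches. The letters AATAAA, which include the polyadenylation signal of many transcripts, are in capitals, and were present in 9.77% of all probes and in 1 of the 10 checkpoint probes.
Lag3 brighter probe: ctgccttagaacatgggattcagccatttc
Lag3 dimmer probe: agctgaaactttcctgttactgccccaagt
Btla brighter probe: ctacttagtaaatatgtatgttgtagctcc
Btla dimmer probe: gaatgtatccataaacagtgAATAAAgagg

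Tigit, a receptor of T and natural killer cells that competes with the activating receptor CD226, was measured at chr16:43649114-43649173 on the minus strand. The signal was -8.06, -8.18 and -8.17 in MRL mice, all at background, and -3.91, -3.70 and -4.00 in LPR mice. Tigit transcript was measurable in LPR kidneys only, at least 4.23-fold higher (limma, adjusted p = 7.47e-06). That p-value belongs to the fitted change from background signals and does not test the limit. With a floor at the detection limit the log2 change was 2.08 (limma, adjusted p = 3.72e-05).

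Havcr2, found on T cells that make interferon gamma and on macrophages and dendritic cells, was measured at chr11:46294650-46294709 on the plus strand. The signal was -5.43, -4.97 and -4.67 in MRL mice and -1.96, -2.98 and -2.20 in LPR mice. All were above background, and LPR 2 was the lowest of its group, as it was for both ligands, Ctla4 and both Btla probes. TIM-3 transcript rose by 2.64 ± 0.30 (SE, n = 3 per group), or 6.24-fold (limma, adjusted p = 0.00202).

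Ctla4, at chr1:60971801-60971860 on the plus strand, gave -6.60, -6.41 and -5.30 in MRL mice, of which MRL 3 alone was above background, and -5.21, -5.24 and -4.41 in LPR mice. The highest MRL mouse lay 0.06 under the lowest LPR mouse. The difference was 1.15 ± 0.38 (SE, n = 3 per group; 95% interval 0.24 to 2.06) with an adjusted p of 0.0983 (limma), so that it did not pass over all probes. Without MRL 3 it was 1.55 and passed (adjusted p = 0.0251).

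**Figure D2:**
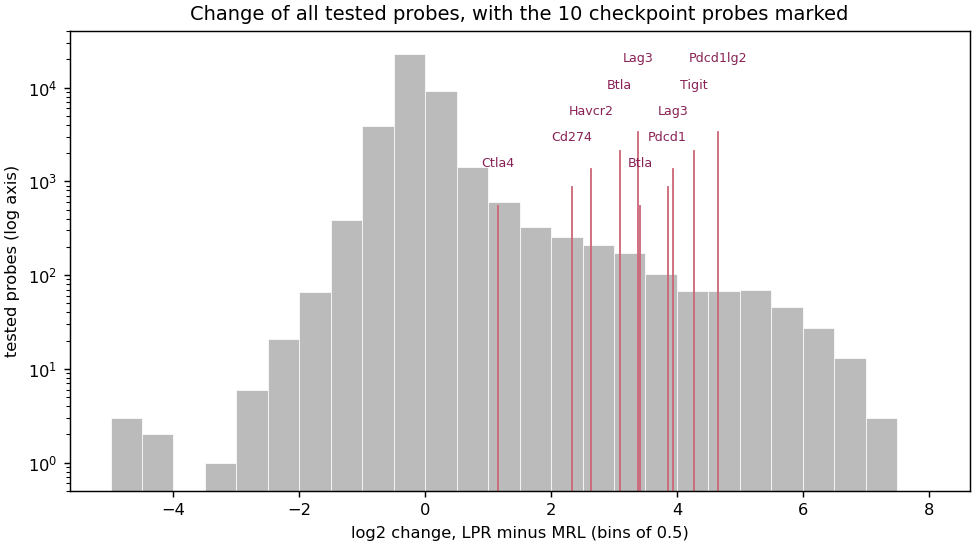
Number of tested probes (vertical, log axis) by log2 change between LPR and MRL mice (horizontal, bins of 0.5), with lines at the fitted changes of the 10 checkpoint probes. The fitted values of Pdcd1lg2, Tigit and the dimmer probes of Lag3 and Btla rest on MRL signals at background. All 10 lie to the right of 1, with Ctla4 at 1.15 the lowest.

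Among the CD28 and B7 families, to which PD-1, CTLA-4 and their ligands belong, 5 of 8 tested genes rose, 0 fell and 3 did not pass, with a median change of 1.39. Icos, a costimulator of helper T cells, rose by 3.86 ± 0.16 (SE; limma, adjusted p = 2.54e-05) and Cd28 by 3.26 ± 0.24 (adjusted p = 2.57e-04). The signal of Icos was -5.15, -4.85 and -5.02 in MRL mice and -0.88, -1.42 and -1.13 in LPR mice, and that of Cd28 was -4.18, -4.03 and -4.04 against -0.74, -1.36 and -0.36. Both activating receptors thus lay at separate levels in the groups. Cd86 rose by 2.47 (adjusted p = 5.49e-04), Vsir, which encodes the inhibitory molecule VISTA, by 2.06 (adjusted p = 1.67e-04) and Icosl, the ligand of ICOS, by 0.43 on its brighter probe (adjusted p = 0.0484), while its dimmer probe changed by -0.25 and did not pass. Cd80 changed by -0.11 (adjusted p = 0.572), Cd276 by 0.71 (adjusted p = 0.137) and Btnl2 by -0.14 (adjusted p = 0.380). None of the 3 tested Cd80 probes passed, and Vtcn1 and Btn2a2 were too dim to test.

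A list of 14 ligands and partners of the receptors left out the PD-1 ligands, given above, and MHC class II. Of the 14 listed genes, 5 rose, 2 fell and 7 did not pass, and their median change was -0.13. For CTLA-4 the listed ligands were Cd86 and Cd80, given above. For TIGIT, the activating competitor Cd226 rose by 1.86 (limma, adjusted p = 0.00942), whereas Pvr (CD155) changed by 0.12 and Nectin2 by -0.14 without passing, and Nectin3 fell by 0.39 (adjusted p = 0.0409). For TIM-3, Lgals9 rose by 0.53 (adjusted p = 0.0281), Hmgb1, a nuclear protein that also acts as an alarm signal, fell by 0.76 (adjusted p = 0.00756), and Ceacam1 changed by -0.55 (adjusted p = 0.127). For LAG-3, Lgals3 rose by 0.71 (adjusted p = 0.00587), and Fgl1 at -0.38 and Clec4g at -0.37 did not pass. For BTLA, Tnfrsf14 (HVEM) changed by -0.43 on its brighter probe (adjusted p = 0.284), while its dimmer probe, at background in MRL mice, rose at least 2.86-fold (adjusted p = 0.0246). Tnfsf14 (LIGHT), the other partner of HVEM, rose by 1.32 (adjusted p = 0.0396). In the TIM family, Timd4 was at least 1.17-fold higher (adjusted p = 0.0376), and Timd2 at 0.97 and Havcr1 (KIM-1, known as a marker of tubular injury) at 0.34 did not pass on their brightest probes, while the dimmer probe of Timd2 rose by 0.64 (adjusted p = 0.0469).

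**Figure D3:**
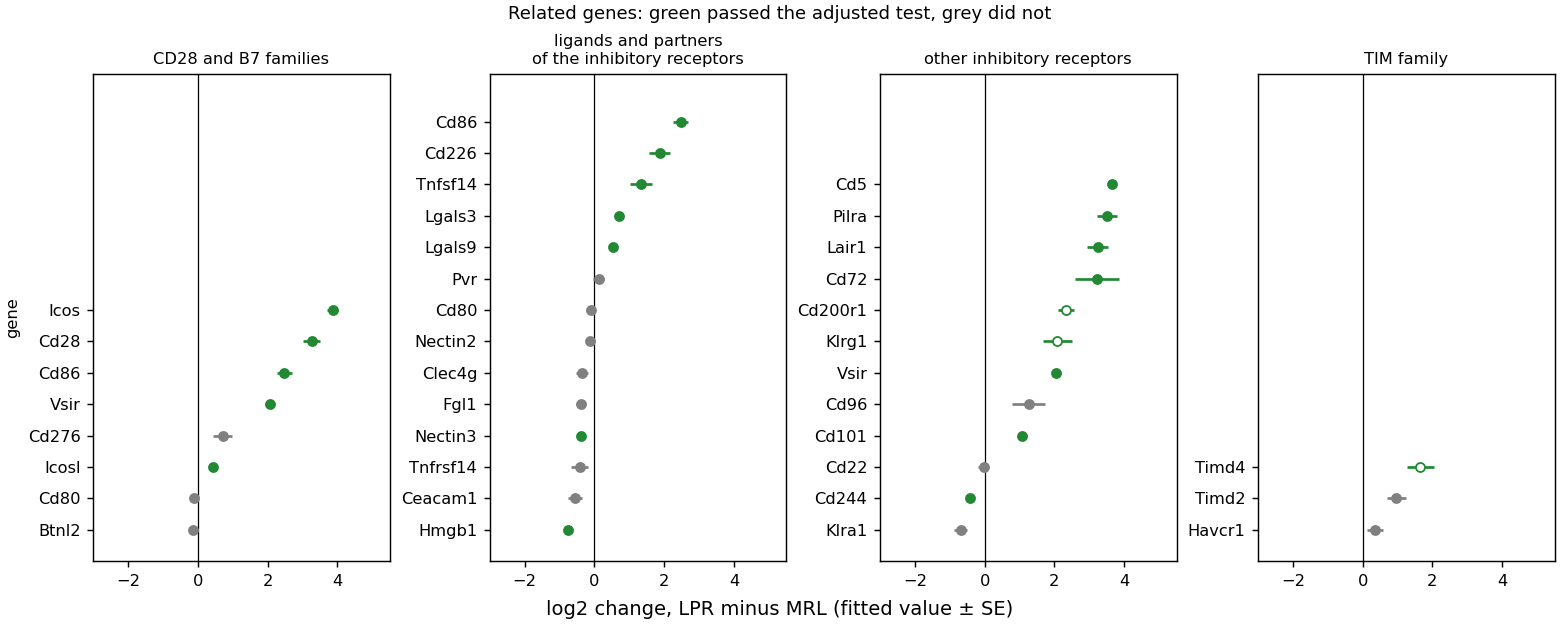
Log2 change between LPR and MRL mice (horizontal, fitted value with SE, n = 3 mice per group) of the brightest tested probe of the genes related to the checkpoints, in 4 panels. Green genes passed the adjusted test and grey ones did not, and open points had no MRL array above background. In the CD28 and B7 panel Icos and Cd28 are furthest to the right, and in the ligand panel 7 of 14 genes are grey.

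Of 12 further inhibitory receptors that could be tested, 8 rose, 1 fell and 3 did not pass, with a median of 2.07. The largest rises were those of Cd5, a damper of antigen receptor signals on T cells, by 3.65 (limma, adjusted p = 1.18e-05), Pilra, a receptor of myeloid cells, by 3.49 (adjusted p = 3.96e-04), and Lair1, a collagen receptor of leukocytes, by 3.24 (adjusted p = 6.80e-04). Cd244 was the gene that fell, by 0.42 on its brightest probe (adjusted p = 0.0460), but its dimmest probe rose by 2.94 (adjusted p = 0.0433), so the probes of Cd244 did not move together. By any probe 11 of the 12 rose, and the median was 1.63 with genes at background in MRL mice at their lower limits. A list of phosphatases, adaptors, kinases and other signalling proteins linked to inhibitory receptors gave 10 rises, 0 falls and 5 genes not passing of 15 tested. This list does not separate members that carry inhibition from members that oppose it. The adaptor Sh2d1a was at least 10.4-fold higher (adjusted p = 9.32e-04) and Sh2d1b1 at least 3.54-fold (adjusted p = 8.26e-04), and the lipid phosphatase Inpp5d (SHIP1) rose by 1.77 (adjusted p = 0.00250). Of the 2 tyrosine phosphatases that PD-1 and BTLA recruit, Ptpn6 (SHP-1) rose by 1.09 (adjusted p = 0.00143) and Ptpn11 (SHP-2) changed by 0.02 (adjusted p = 0.908).

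In the interferon gamma pathway, known to switch on PD-L1, 5 of 10 genes rose and 0 fell, with a median of 0.46. Ifng was at background in all MRL mice, at -7.94, -6.64 and -6.36, and at -1.85, -1.98 and -1.91 in LPR mice, at least 16.4-fold higher (limma, adjusted p = 2.77e-04). Irf1 rose by 2.44 (adjusted p = 7.15e-05), from 1.23, 1.39 and 1.67 to 3.92, 3.87 and 3.82. The cytokine and this transcription factor were thus each at separate levels in the groups, whereas the kinase Jak2 changed by 0.19 (adjusted p = 0.296). Cmtm6 at -0.05 and Cmtm4 at -0.21, which keep PD-L1 protein at the cell surface, did not pass. Among transcription factors of T cells under lasting stimulation, 11 of 16 rose and 0 fell, led by Eomes at 3.43 (adjusted p = 7.35e-04), Irf4 at 3.43 (adjusted p = 0.00133) and Batf at 3.11 (adjusted p = 0.00126), with a median of 0.89.

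The genes close to the checkpoint genes on the chromosome did not all move with them. Around the PD-1 ligands, Insl6, Rln1 and Plgrkt on one side and Ric1 and Ermp1 on the other changed by -0.31 to 0.31 and none passed. Ctla4 lies between Cd28 and Icos, which rose by 3.26 and 3.86 beside its own 1.15, and the differences among these 3 genes were not tested. Next to Lag3, Cd4 rose by 0.53 on its brightest probe (limma, adjusted p = 0.0356), and Ptms at 0.03 and Mlf2 at -0.06 did not pass. Near Havcr2, Fam71b at 0.01 and Med7 at -0.13 on its brightest probe did not pass, while another probe of Med7 rose by 1.66 (adjusted p = 0.0104). Near Btla, Ccdc80 rose by 0.69 (adjusted p = 0.0309) and Cd200 at 0.24 did not pass. Of the 20 tested genes listed as neighbours 7 rose, 0 fell and 13 did not pass, with a median of 0.21. The list held none of the genes next to Pdcd1 or Tigit, and some of its genes lie further off than the nearest ones.

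**Figure D4:**
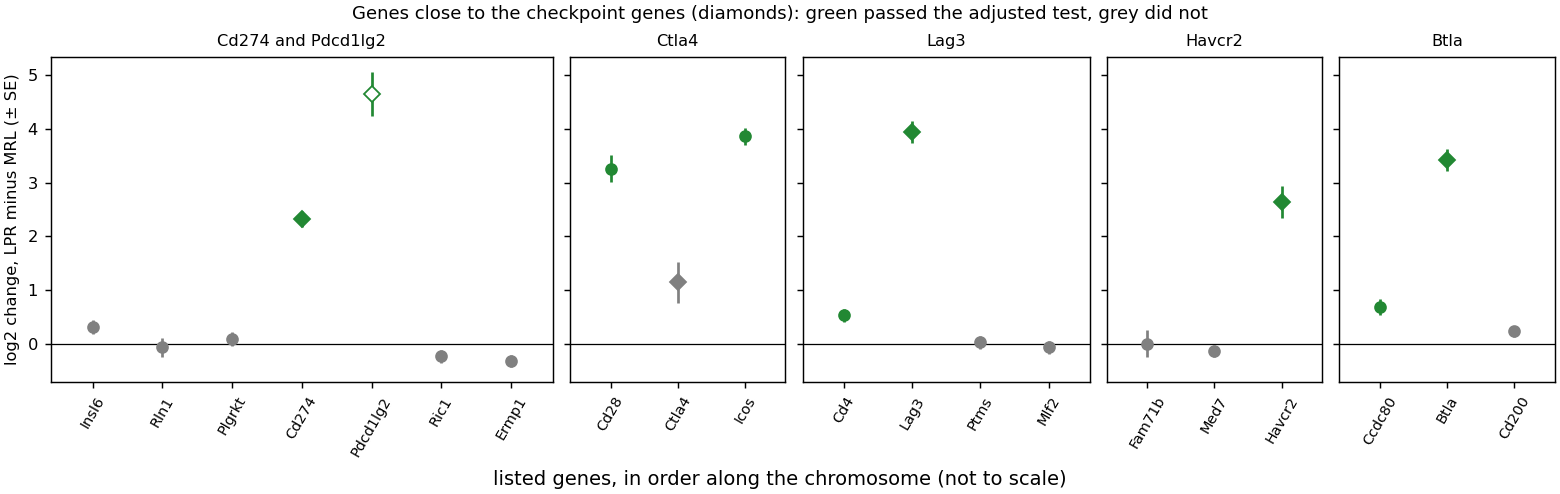
Log2 change between LPR and MRL mice (vertical, fitted value with SE, n = 3 mice per group) of checkpoint genes (diamonds) and listed genes close to them (circles), in the order of RefSeq on GRCm38.p6 and not to scale. Green passed the adjusted test, grey did not, and the open diamond had no MRL array above background. The 5 neighbours of Cd274 and Pdcd1lg2 lie between -0.31 and 0.31.

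The levels of leukocyte markers moved with the checkpoint genes. Of 9 T cell markers 8 rose, 0 fell and 1 did not pass, with a mean level over the list of -2.50 to -2.20 in MRL mice and 0.64 to 0.83 in LPR mice and a median change of 3.53. Cd2 rose by 4.64, Cd3g by 4.15 and Cd3d by 4.14 (limma, adjusted p = 8.42e-05, 9.61e-06 and 1.35e-05), and Cd3e by 1.89 (adjusted p = 1.24e-04). Of the coreceptors, Cd8a changed by 0.02 (adjusted p = 0.912) and Cd8b1 rose by 1.93 (adjusted p = 9.51e-04). Foxp3, which defines regulatory T cells, a cell type with high CTLA-4, rose by 1.71 (adjusted p = 0.00402), from -5.78, -4.99 and -5.70 to -3.88, -3.91 and -3.55, and 2 of 4 regulatory T cell markers rose, the other being Ikzf2 by 0.73, and 3 of 4 by any probe. Of 7 tested markers of natural killer and cytotoxic cells 6 rose, with a mean list level of -4.70 to -4.13 in MRL mice and -1.53 to -1.50 in LPR mice. The granule proteases Gzmk and Gzmb, at background in MRL mice, were at least 32.1-fold and 11.8-fold higher, and Nkg7 rose by 4.42. Of 5 follicular helper T cell markers 3 rose, with Cxcr5 at least 11.1-fold higher beside Icos and Sh2d1a, and the probes of Il21 moved apart, the brighter one falling by 0.90 (adjusted p = 0.0258) and the dimmer one, at background in MRL mice, rising at least 4.39-fold (adjusted p = 8.56e-05). By any probe 4 of the 5 rose.

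Of 6 macrophage markers 4 rose and 0 fell, with a mean list level of 0.01 to 0.59 in MRL mice and 1.88 to 2.04 in LPR mice. Fcgr1 rose by 4.23 on the log2 scale, Adgre1 (F4/80) by 2.84 (limma, adjusted p = 0.0274) and Csf1r by 0.55 (adjusted p = 0.0296), and Cd68 rose 8.59-fold. Adgre1 stood at 0.68 in MRL 3 against -1.57 and -1.76 in MRL 1 and MRL 2. For dendritic cells 5 of 7 markers rose, among them Itgax (CD11c) at 3.82, Clec9a at 2.41 and Xcr1, at background in MRL mice and at least 1.34-fold higher. For granulocytes it was 3 of 4, with S100a8 at 2.48, S100a9 at 2.28 and Mpo at 0.65. For B cells 3 of 6 rose, among them Cd79b by 2.83 and Cd79a by 1.88, and the brighter probe of Ms4a1 (CD20) fell by 0.70 (adjusted p = 0.0497) while its dimmer probe rose by 4.99 (adjusted p = 0.00281). By any probe 5 of the 6 rose. For plasma cells 4 of 5 rose, with Tnfrsf17 (BCMA) at least 7.72-fold higher, Jchain up by 4.49 and Mzb1 by 4.35, and for fibroblasts and mural cells 3 of 5, namely Col1a1 by 2.37, Dcn by 0.85 and Acta2 by 0.61. In the remaining lists, 0 of 5 proximal tubule, 0 of 5 other nephron, 0 of 4 podocyte and 0 of 5 endothelial markers rose, and 0 of 3 tested erythroid markers. The transporters Slc5a2 and Lrp2 of the proximal tubule fell by 0.57 and 0.39 and the endothelial receptor Kdr by 0.57. The part of each cell type in the checkpoint changes was not tested.

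To set the receptors beside the T cell signal, their change was also taken relative to the mean of Cd3d, Cd3e and Cd3g, which rose by 3.39. On this scale 98.3% of all tested probes were lower in LPR mice and 0.646% higher, and of the 6 receptors 1 was lower and 2 were higher. Pdcd1 differed by 0.46 (95% interval -0.07 to 0.98; limma, adjusted p = 0.0784), Btla by 0.02 (-0.47 to 0.51) and Havcr2 by -0.75 (-1.55 to 0.05), none of which passed. Ctla4 was lower, by -2.24 ± 0.40 (SE; interval -3.18 to -1.31; adjusted p = 6.34e-04), and remained lower under each of 11 alternatives, at -2.99 to -1.78. Of its MRL signals only that of MRL 3 was above background, so its rise may be understated and this difference overstated. Lag3 was higher by 0.55 on its brighter probe (limma, adjusted p = 0.0261, unadjusted p = 0.0257), which no longer passed in 4 of the 6 fits without a mouse. Its dimmer probe was at -0.01 (-1.05 to 1.03) and that of Btla at -0.30, both at background in MRL mice, and neither passed. So many probes were called on this scale that the adjustment hardly changed a p-value. The fitted value of Tigit was 0.87, but its MRL signal was at background and the value was -1.31 with a floor at the detection limit. With Cd3d and Cd3g alone as reference Lag3 was at -0.20 and Tigit at 0.12, and with normexp background correction both were negative, at -0.76 and -1.86. No receptor was thus higher than the CD3 signal under every setting.

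The ligands were likewise set beside the mean of Adgre1, Csf1r, Cd68 and Itgam, which rose by 1.60, a scale on which 95.1% of all probes were lower and 2.36% higher. Cd274 was higher by 0.73 (limma, adjusted p = 0.0169, unadjusted p = 0.0163), but with Cd68 and Adgre1 alone as reference it was at -0.64. Here too the adjustment hardly changed the p-value. Both ligands were given the same SE of 0.30 on this scale, so the p-value does not measure the spread of each gene. Pdcd1lg2 was higher by 3.05, with normexp at -0.085, and its MRL signal was at background. Neither direction held under all references and background corrections.

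The genes whose signal over the 6 arrays was most alike to that of each checkpoint gene are named as a description, since all of these arrays share the difference between the groups. Pearson r was at least 0.997 for every gene named except those of Ctla4. For Pdcd1 these were Osm, a cytokine, and Mmp3, a matrix protease, besides 1 transcript without a symbol. For Cd274 they were Iigp1, a GTPase switched on by interferon, Arl5c and Cysltr2, and for Pdcd1lg2 Lpcat2, Trpm2 and Pira11. For Lag3 they were Fes, the granule protease Gzmk and the phosphatase Ptpn7, for Havcr2 Pla2g7, Parp9 and Cmtm7, and for Btla St8sia4, Traf3ip3 and Treml2. For Tigit Il9r and 2 transcripts without a symbol came closest. For Ctla4 the closest was 9930111J21Rik1, and r fell to 0.982 within its 3 nearest, of which the other two have no symbol.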

How the data were processed

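The deposited intensities come from Agilent Feature Extraction 12.0.3.1, run by the authors on single-colour arrays of 1 slide. Per the file headers, background subtraction and detrending were done array by array, with nothing done to equalize the arrays. The authors also deposited ratios of each intensity to the 75th percentile of its array, which served as an alternative. Here log2 intensities had the 75th percentile of the 59305 non-control spots subtracted, without outlier spots and with repeated spots of a probe averaged. Testing took in 39924 of 56605 probes, those that passed the background call on 3 or more of the 6 arrays. Groups were compared by limma 3.58.1 (R version 4.3.3), and p-values were adjusted by Benjamini-Hochberg across these probes, at a threshold of 0.05. The brightest tested probe stands for a gene. With 3 mice per group an exact test cannot go below p = 0.1, so none is given, and the number of arrays limits the precision. The labels do not say whether the mice were littermates.

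For a probe with no MRL array above background, the lower limit sets the LPR mean against the mean over MRL arrays of, on each, the higher of the probe's own signal and the lowest signal that was well above background. A p-value printed beside a lower limit belongs to the fitted change, which rests on MRL signals at background, and does not test the limit. Coordinates of probes are those of the array annotation (mm9), and exons and UTRs were not assigned. Promoters are from RefSeq (GRCm38.p6), and the set of promoter sequences used here held 7 of the 8 genes. The members and the lists of related genes and markers were chosen with earlier results of these data known. Named genes are every member, listed family member and listed ligand, set markers and the 3 largest rises and falls, by fitted change, of each other list. Some genes are not reported here and remain in the counts. Alternatives covered background correction, normalization, filters, slide position, replicate number, probe averaging, the methods' t-test and leaving out each mouse. The limma fit was tested on simulated data with independent noise, and the scaling on an array multiplied by a constant. The other steps had no such test. Figures were drawn with matplotlib 3.10.9.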

Additional observations from a re-analysis of the deposited data

How the results depend on the processing

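The count of checkpoint genes higher in LPR mice was 7 or 8 when each mouse was left out in turn and 7 with the slide position as a block. Over all 24 alternatives it was between 4 and 8, with 0 lower in each. All MRL arrays and LPR 1 were in the first slide position, and LPR 2 and LPR 3 in the second. The fits with slide position as a block or within the first position thus compare the strains by LPR 1 alone. The count of genes was 4, as was the count of probes, when a probe had to be above background on all 6 arrays, since fewer probes are then tested. With normexp correction the changes were smaller, 2.10 for Pdcd1, 1.92 for Cd274, 1.42 for Pdcd1lg2, 1.96 for Lag3, 0.86 for Tigit, 1.12 for Havcr2, 1.81 for Btla and 0.11 for Ctla4. With the methods' t-test on linear values and adjustment, 6 genes were higher, Havcr2 being lost. The deviations of samples with the same number were weakly correlated (r = 0.115, 0.020 and 0.005). Whether these samples share more than a number cannot be told from these values or from the labels. With the replicate block 8 genes and 10 probes passed, Ctla4 among them (adjusted p = 0.0141).

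Over all probes, the count higher was 1458 with slide position as a block, 1116 within the first position, and 1736 and 1444 with the adjusted t-test on log2 and linear values, against 2606. The count lower, 2462 in the fit reported, was 4498 with normexp, 1093 without a filter, 463 with slide position as a block, 315 within the first position, 1117 with the replicate block, 1386 and 1354 with the adjusted and 7176 and 7385 with the unadjusted t-test on log2 and linear values, and 760 to 2269 when a mouse was left out. The count higher was then 1958 to 2370.

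Relative to the CD3 chains, 2 receptors were higher and 1 lower. The count higher was 0 with the filter on all 6 arrays, 1 with a floor at the detection limit, 0 with normexp, 0 with Cd3d and Cd3g alone, and 1 to 3 when a mouse was left out. The count lower was 2 with the floor, 6 with normexp, 2 with the replicate block, 3 with Cd3d and Cd3g alone, and 1 to 2 when a mouse was left out. The direction turned for Btla (-0.91 with normexp, -0.73 with Cd3d and Cd3g alone), Lag3 (-0.76 and -0.20), Pdcd1 (-0.62 with normexp) and Tigit (-1.31 with the floor, -1.86 with normexp). Relative to macrophage markers, the count of ligands higher was 1 with the filter on all 6 arrays, 0 with normexp, 1 with slide position as a block, 1 with Cd68 and Adgre1 alone, and 1 to 2 when a mouse was left out. Cd274 turned to -0.64 with Cd68 and Adgre1 alone and Pdcd1lg2 to -0.085 with normexp. The references of fewer genes were chosen after seeing the data, and the cause of these shifts was not tested. Signals at background in MRL mice limit Pdcd1lg2, Tigit, Ctla4 and the dimmer probes of Lag3 and Btla.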
